A study of Mus musculus with 16 samples.

Results

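The genes described here code for the pores and accessory subunits of voltage-gated sodium and calcium channels, potassium channels and hyperpolarization-activated channels. They were taken by symbol: every gene whose name starts with Kcn, Cacn or Hcn, or is Scn with a number and the letter a, except Kcnj6. The rule gave 126 of the 19938 genes with a named probe set, and used expression only to pick, for the 7 of them measured by several probe sets, the probe set that was brightest on average over the 16 arrays. Among them 3 are long non-coding RNAs that carry a channel gene's name (Kcnd3os, Kcnmb4os1 and Kcnmb4os2), and Kcnrg codes for a regulator rather than a channel. Probe sets assigned to several genes were left out, and some other channel genes were not analysed here.

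RNA came from mouse cells labelled as mesodiencephalic dopaminergic (mdDA) neurons and was measured on 16 Affymetrix arrays. All cells had the genotype Pitx3GFP/+ (green fluorescent protein at the locus of the transcription factor gene Pitx3) on a mixed C57BL/6 x 129/Ola background. The design text says that they were sorted for GFP, whereas the sample labels name the sort for the primary cells alone. Treated cells were derived from induced pluripotent stem cells (iPSCs) with recombinant human WNT1 and DKK3 in the culture (5 biological replicates), and control cells were derived from iPSCs without them (5 biological replicates). Primary neurons came from the ventral midbrain of embryos at E13.5 and E14.5, each stage on 3 technical arrays that count as 1 sample. The iPSC line or clone, and the number of embryos pooled, were not given in the sources used here. A p-value therefore reflects only how much these particular samples vary.

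Voltage-gated sodium channels carry the upstroke of the action potential, voltage-gated calcium channels turn depolarization into calcium entry and transmitter release, and potassium channels repolarize the membrane and set its resting potential. Midbrain dopaminergic neurons fire on their own, and are known for L-type calcium channels, HCN channels, A-type potassium channels built from Kv4 pores with KChIP subunits, and SK channels that shape the pause between spikes. The pores are encoded by the Scn, Cacna1, Hcn and most Kcn genes, and the other genes code for subunits that traffic or gate them.

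All values are log2 levels as the authors deposited them, and levels are compared between samples of 1 gene and not between genes. Array medians over all 35556 probe sets lay between 5.85 and 6.02. Medians over the named genes alone, used for centring below, are not given here. The lower quartile over genes lay between 4.84 and 5.11 depending on the array, and 7 channel genes (Cacna1f, Kcne3, Kcnj1, Kcnu1, Scn10a, Scn11a and Scn7a) were below it on every array. No detection call was available, so a gene at that level cannot be told from one that is off. The labelled cell type was checked on markers. The mean level of 9 dopaminergic markers was between 9.49 and 9.92 on the primary arrays, between 5.75 and 6.05 on treated arrays 1 to 4 and 7.87 on treated array 5, and at most 6.04 on control arrays 1 to 4 and 7.51 on control array 5. In control against primary, 9 of 9 dopaminergic and 10 of 10 pan-neuronal markers were lower, and 7 of 7 epithelial and 9 of 9 fibroblast markers were higher. In such bulk samples fewer cells of a type and less RNA per cell cannot be told apart.

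Promoters are shown for 6 of the channel genes with large differences, and none is shown for Kcnk9 or Scn3a. The 6 are Cacng3, Cacng2, Cacna2d3 and Kcnd3, low in the iPSC-derived cells, and Kcnj13 and Kcnk5, high in them. Each line gives the 150 bases before the annotated start, 5′ to 3′ on the gene's strand, from RefSeq on GRCm38.p6, with matches to the GC box (GGGCGG or its reverse complement) and the TATA box (TATAAA) in capitals.
Cacng3 (chr7:122671594-122671743, plus strand, lower): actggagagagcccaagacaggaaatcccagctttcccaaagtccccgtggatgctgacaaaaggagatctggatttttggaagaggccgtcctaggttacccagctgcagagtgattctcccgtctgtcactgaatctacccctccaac
Cacng2 (chr15:78119281-78119430, minus strand, lower): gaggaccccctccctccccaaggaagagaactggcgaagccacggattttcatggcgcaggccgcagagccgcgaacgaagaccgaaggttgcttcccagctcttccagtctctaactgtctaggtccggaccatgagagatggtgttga
Cacna2d3 (chr14:29721865-29722014, minus strand, lower): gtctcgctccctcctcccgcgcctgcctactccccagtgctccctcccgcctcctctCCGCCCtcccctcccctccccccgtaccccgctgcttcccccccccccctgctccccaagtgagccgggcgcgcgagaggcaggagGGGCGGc
Kcnd3 (chr3:105451740-105451889, plus strand, lower): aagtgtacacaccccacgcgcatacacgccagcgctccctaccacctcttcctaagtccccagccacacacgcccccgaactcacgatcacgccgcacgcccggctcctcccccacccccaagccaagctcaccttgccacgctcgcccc
Kcnj13 (chr1:87394730-87394879, minus strand, higher): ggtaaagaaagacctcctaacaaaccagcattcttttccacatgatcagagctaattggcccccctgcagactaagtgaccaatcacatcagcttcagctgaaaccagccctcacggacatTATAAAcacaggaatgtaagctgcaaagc
Kcnk5 (chr14:20181783-20181932, minus strand, higher): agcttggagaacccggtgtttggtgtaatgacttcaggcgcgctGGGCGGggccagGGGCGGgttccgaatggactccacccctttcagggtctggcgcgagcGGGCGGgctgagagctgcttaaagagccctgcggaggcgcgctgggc

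The Cacna2d3 stretch held 2 GC boxes, the Kcnk5 stretch 3 GC boxes and the Kcnj13 stretch a TATA box, and the other stretches had no match. Over the 250 bases before the start, searched on both strands for 96 channel genes with a RefSeq window, the median GC content was 58.8%, against 52% over all 27025 genes with a window. The GC box was found in 50% of the channel genes and 32.9% of all genes, and the TATA box in 3.1% and 13%. The short core words of the RE1 element of neuronal genes, CAGCACC and GGACAG, were found in 4.2% and 20.8% of channel genes against 5.7% and 18.7% of all genes. These short words can overlap one another. Of the 51 channel genes with a window that were lower in control than in primary cells, 52.9% had a GC box, and of the 41 not called either way 48.8% had one. These matches describe the letters of the windows and not bound sites.

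Primary neurons had higher levels of most channel genes that differed. In control against primary cells, 67 of 126 channel genes (53.2%) were lower and 4 (3.17%) were higher at an adjusted p under 0.05 (limma), where over all genes 22.5% were lower and 19.3% higher. Treated against primary cells gave the same numbers, 67 lower and 4 higher, where 21.3% of all genes were lower and 19.9% higher. The 4 higher genes were the same, and 63 were lower in both. Kcnc2, Kcnj5, Kcnk16 and Kcnk3 were called lower only in control, and Cacna2d4, Kcnh3, Kcnj9 and Kcnv1 only in treated cells. The median difference over the 126 genes was -0.45 for control and -0.42 for treated cells, against -0.11 and -0.09 over all genes. Both comparisons share the primary samples, so they are given side by side and are not independent. The primary group held 2 samples, so the spread behind each standard error (SE) and p-value came mostly from the 10 iPSC-derived arrays. Technical arrays were averaged first, so the spread among them did not enter, and the precision of the primary means is poorly known. The neuronal and other cell type markers named above moved in the same comparisons, and their part in the channel gene differences was not tested. Of the 126 genes, 46 were lower in control cells by 2-fold or more at that p, where 7.91% of all genes were, and 4 were higher by as much, where 10.6% were. When each array was centred on its median over genes, the median over all genes moved to -0.30 in control against primary, calls over all genes from 3855 higher and 4491 lower to 3046 and 8833, and channel gene calls to 3 higher and 95 lower.

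**Figure D1:**
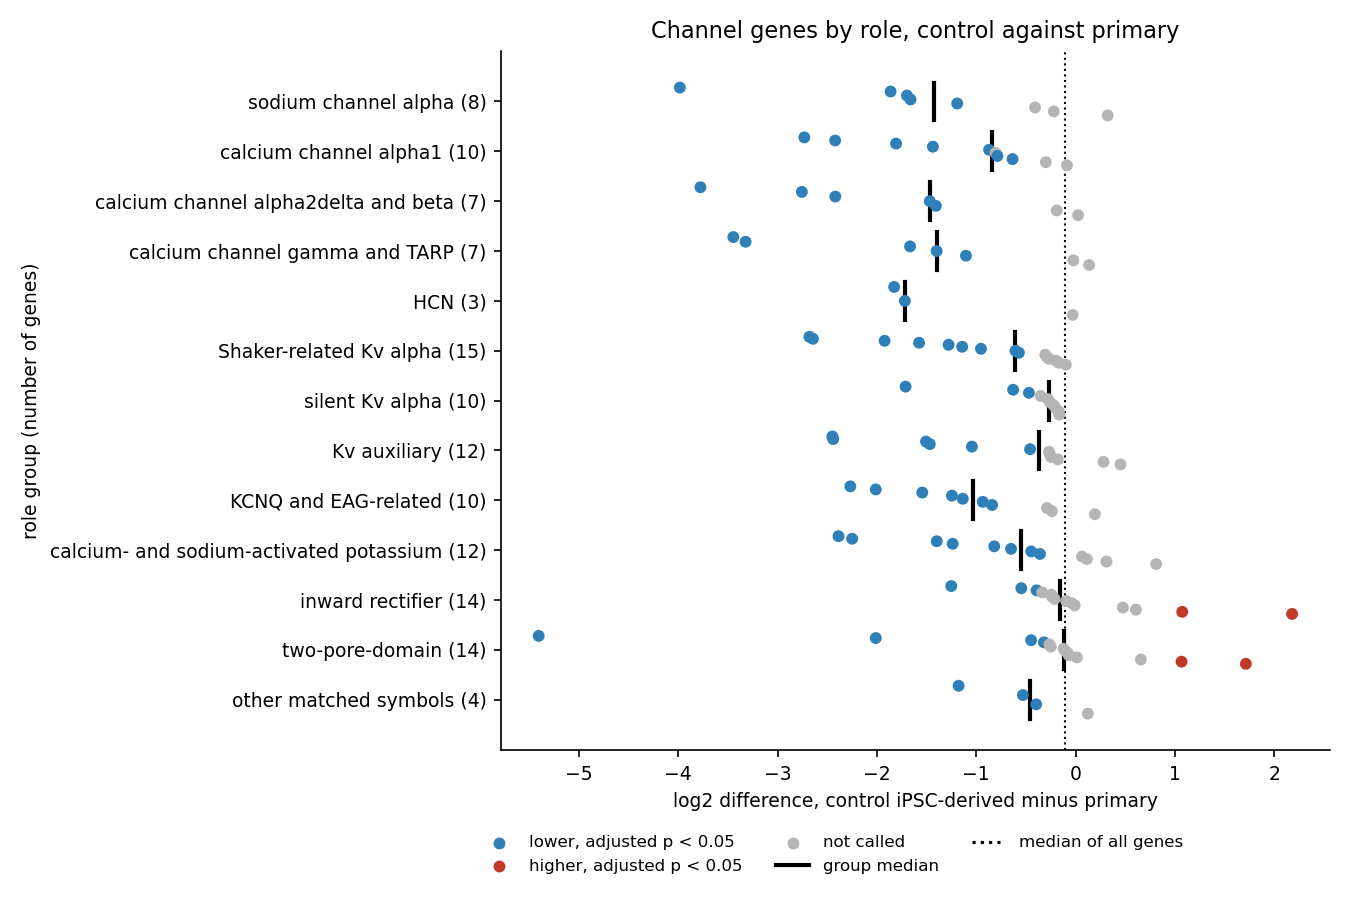
Log2 difference of control iPSC-derived cells minus primary cells (x axis) for the 126 channel genes in their role groups (y axis), each point 1 gene, coloured by its limma call. Black bars mark group medians and the dotted line the median of all genes, -0.11; Kcnk9 lies at -5.40, and the 4 genes called higher are inward rectifier and K2P genes.

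Of the 8 sodium channel pore genes, 5 were lower in control cells and none was higher, with a group median of -1.43. Scn3a, the pore gene known from embryonic neurons, had levels of 4.45, 4.36, 4.18, 3.99 and 5.36 on control arrays 1 to 5, 4.36, 4.27, 4.27, 4.62 and 6.23 on treated arrays 1 to 5, 8.66, 8.52 and 8.30 at E13.5, and 8.65, 8.14 and 8.44 at E14.5. Every iPSC-derived array was below every primary array, and array 5 was the highest of both iPSC-derived groups. The difference was -3.98 (SE 0.48, limma adjusted p = 3.66e-05) for control and -3.70 (adjusted p = 6.67e-05) for treated cells. Scn2a, Scn9a, Scn8a and Scn1a, which code for other neuronal pores, differed by -1.86, -1.70, -1.66 and -1.19 in control cells, and all passed the test. Scn2a has 14 single-gene probe sets, and all 14 had a lower mean in control cells, with differences from -3.44 to -0.96. The sodium channel genes are close in sequence, and 3 probe sets assigned jointly to Scn1a, Scn2a, Scn3a or Scn9a, which were not used, had differences from -4.05 to -3.08. Scn10a (-0.41), Scn11a (-0.22) and Scn7a (0.32), known from sensory neurons and glia, did not pass the test and were dim on every array.

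Among the 10 calcium channel pore genes, 7 were lower in control cells, none was higher, and the median was -0.84. Cacna1b, the N-type channel of presynaptic terminals, had levels from 5.30 to 5.77 in control, from 5.19 to 6.58 in treated, from 8.09 to 8.51 at E13.5 and from 8.06 to 8.41 at E14.5, with no overlap between iPSC-derived and primary arrays. Its difference was -2.73 (SE 0.29, limma adjusted p = 1.13e-05) for control and -2.60 (1.73e-05) for treated cells. Cacna1e (R-type) differed by -2.42, the T-type gene Cacna1h by -1.81, the P/Q-type gene Cacna1a by -1.44 and the T-type gene Cacna1i by -0.64 in control against primary, and all passed the test.

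Cacna1d, the L-type pore gene known for pacemaking in dopaminergic neurons, had levels of 5.41, 5.88, 5.79, 5.91 and 6.54 in control, 5.67, 5.35, 5.73, 6.11 and 5.94 in treated, 6.55, 6.83 and 6.52 at E13.5, and 6.27, 6.84 and 7.13 at E14.5. Control array 5 reached the range of the primary arrays, and the other iPSC-derived arrays were below it. The difference was -0.79 (SE 0.25, limma adjusted p = 0.025) in control and -0.93 (adjusted p = 0.0107) in treated cells. Cacna1c, the other neuronal L-type gene, differed by -0.87 (adjusted p = 0.0374) in control and was also lower in treated cells (0.0206). Its call was lost in control when control array 1, 3 or 4 was left out. With only 1 primary stage in the fit, which leaves 1 primary sample, neither L-type call was kept, while the differences in control stayed at -0.79 (E13.5) and -0.95 (E14.5) for Cacna1c and -0.73 and -0.84 for Cacna1d. Cacna1g, a T-type gene, did not pass the test at -0.81 (SE 0.55, limma adjusted p = 0.252): levels were 6.98, 7.40, 6.30, 6.09 and 8.12 in control and 7.11, 7.03, 6.28, 6.05 and 7.99 in treated cells, against 7.45 to 8.09 on the primary arrays. Both arrays numbered 5 were within or above the primary range and the other iPSC-derived arrays were below it, and without both arrays 5 the difference was -1.09 (adjusted p = 0.0368). Cacna1f (-0.30) and the muscle gene Cacna1s (-0.09) were not called.

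The accessory subunits of calcium channels held several of the largest differences. Of 7 alpha2delta and beta subunit genes 5 were lower in control cells, with a median of -1.47, and of 7 genes named as gamma subunits 5 were lower, with a median of -1.40; none of these 14 was higher. Cacna2d3, a subunit that brings channels to the membrane, had levels of 5.11, 4.91, 4.72, 4.94 and 6.47 in control, 5.06, 4.66, 4.92, 4.66 and 7.18 in treated, 9.10, 8.82 and 8.80 at E13.5, and 9.06, 9.02 and 9.23 at E14.5. Both arrays 5 stood above the other arrays of their groups and below all primary arrays. The difference was -3.78 (SE 0.62, limma adjusted p = 0.000396) in control and -3.71 (0.000461) in treated cells. Cacna2d1 and Cacna2d2, of the same family, differed by -2.76 and -2.42, and the beta subunit genes Cacnb4 and Cacnb1 by -1.47 and -1.41 in control against primary. Cacnb2 (0.03) and Cacna2d4 (-0.19) were not called in that comparison.

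Cacng3 and Cacng2 are named as calcium channel subunits, but are known as TARPs, proteins that carry AMPA-type glutamate receptors to synapses. Cacng3 had levels of 4.92, 4.23, 4.48, 4.77 and 6.56 in control, 4.83, 4.61, 4.20, 4.56 and 7.68 in treated, 8.25, 8.30 and 8.11 at E13.5, and 9.03, 8.56 and 8.40 at E14.5. No iPSC-derived array reached a primary array, but treated array 5 lay 0.43 below the lowest of them. Its SE was the largest among the named genes, with a difference of -3.45 (SE 0.82, limma adjusted p = 0.00512) in control and -3.26 (adjusted p = 0.00715) in treated cells. With E13.5 as the only primary sample the differences were -3.22 and -3.04, about as large, and were not called (limma adjusted p = 0.0539 and 0.0674), and without both arrays 5 the differences were -3.84 (1.73e-07) and -3.89 (1.53e-07).

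Cacng2 had levels between 5.72 and 7.43 in control, between 5.84 and 7.14 in treated and between 9.31 and 9.86 in primary cells, a difference of -3.32 (SE 0.41, limma adjusted p = 4.23e-05) for control. A second Cacng2 probe set differed by -3.42. The TARP genes Cacng7, Cacng4 and Cacng8 differed by -1.67, -1.40 and -1.10 in control cells and passed the test, and Cacng1, the subunit of muscle, and Cacng5 were not called (-0.02 and 0.14).

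**Figure D2:**
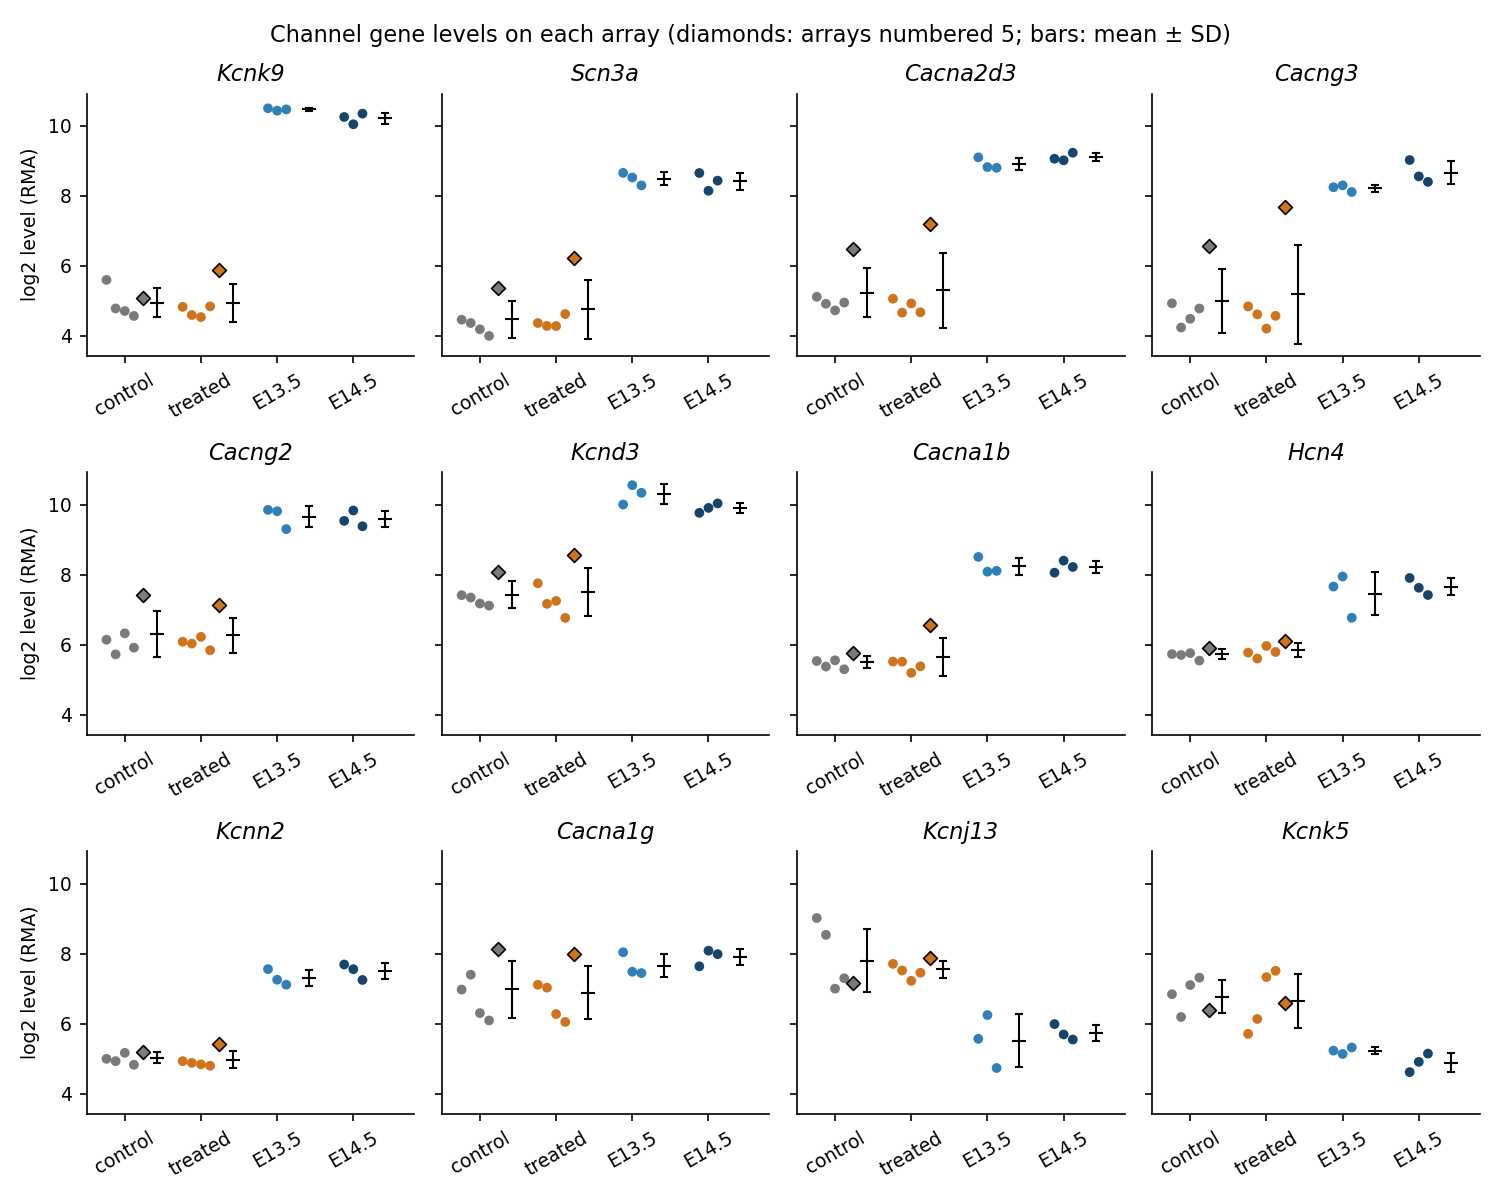
Deposited log2 level (y axis) of 12 channel genes on each array of the control, treated, E13.5 and E14.5 groups (x axis); points are arrays, diamonds are the arrays numbered 5, and bars are the mean ± SD over the arrays of a group (technical arrays for the 2 primary stages). Kcnk9 lies at 4.53 to 5.87 in iPSC-derived and 10.05 to 10.51 in primary cells, while Kcnj13 and Kcnk5 are higher in iPSC-derived cells.

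HCN channels open on hyperpolarization and contribute to pacemaking. Hcn4 had levels of 5.73, 5.71, 5.76, 5.54 and 5.92 in control, 5.77, 5.60, 5.96, 5.79 and 6.10 in treated, 7.66, 7.95 and 6.77 at E13.5, and 7.91, 7.63 and 7.42 at E14.5. The iPSC-derived arrays lay close together, arrays 5 included, and all were below the primary arrays. The difference was -1.83 (SE 0.14, limma adjusted p = 8.72e-07) for control and -1.71 (1.56e-06) for treated cells. Hcn3 differed by -1.72 and -1.68, both past the test, and Hcn2 by -0.03 and -0.19, neither past it.

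Of the 15 Kv pore genes of the Shaker-related subfamilies, 9 were lower in control cells and none was higher (median -0.61). Kcnd3, the A-type pore gene known from dopaminergic neurons, had levels of 7.42, 7.35, 7.18, 7.12 and 8.09 in control, 7.76, 7.17, 7.25, 6.77 and 8.57 in treated, 10.01, 10.57 and 10.35 at E13.5, and 9.78, 9.92 and 10.04 at E14.5. Arrays 5 were the highest of their groups and below every primary array, and the difference was -2.68 (SE 0.40, limma adjusted p = 0.000171) in control and -2.61 (0.000215) in treated cells. Kcnb2, a delayed rectifier gene, differed by -2.65, Kcnd2, another A-type gene, by -1.92, and Kcna4, an inactivating Shaker-type gene, by -1.58. The KChIP partners of A-type pores were lower as well, with differences of -2.45 for Kcnip4, -2.44 for Kcnip1 and -1.47 for Kcnip3 in control cells. Of all 12 Kv auxiliary genes 6 were lower and none was higher (median -0.36).

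Among pore genes that are silent on their own and modify other Kv channels, 3 of 10 were lower in control cells, near the share of all genes (22.5%), with a median of -0.27. Kcng3 was the clearest of them at -1.71 (SE 0.11, limma adjusted p = 1.66e-07), and Kcnf1 and Kcns2 differed by -0.63 and -0.47. Kcns3, known from dopaminergic neurons, was not called (-0.20, adjusted p = 0.281). In the KCNQ and EAG-related group 7 of 10 genes were lower, with a median of -1.04. Kcnh7 (ERG family) and Kcnh8 (ELK family) had small SEs, with differences of -2.27 (SE 0.13, limma adjusted p = 1.07e-07) and -2.01 (SE 0.12, adjusted p = 1.04e-07), and Kcnh4 differed by -1.54. Kcnq3, a subunit of the M-current, differed by -0.84 (adjusted p = 0.000766).

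Of the 12 genes of calcium- and sodium-activated potassium channels, 8 were lower in control cells, none was higher, and the median was -0.55. Kcnn2 codes for an SK channel and had levels of 4.99, 4.93, 5.17, 4.82 and 5.19 in control, 4.93, 4.88, 4.84, 4.80 and 5.41 in treated, 7.56, 7.26 and 7.12 at E13.5, and 7.70, 7.56 and 7.25 at E14.5. All iPSC-derived arrays were below all primary arrays, with a difference of -2.39 (SE 0.17, limma adjusted p = 3.95e-07) in control and -2.44 (3.41e-07) in treated cells. Kcnn3, the SK gene best known from dopaminergic neurons, differed by only -0.82 (SE 0.17, adjusted p = 0.00212). Its iPSC-derived arrays, from 7.08 to 7.79, overlapped the primary arrays, from 7.17 to 8.53. The BK pore gene Kcnma1 differed by -1.40 and the BK beta subunit gene Kcnmb4 by -2.25. A second, dimmer Kcnma1 probe set differed by -0.33, with overlapping arrays.

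Inward rectifiers and K2P leak channels had group medians of -0.15 and -0.11. Among 14 inward rectifier genes 3 (21.4%) were lower and 2 (14.3%) higher in control cells, and among 14 K2P genes 4 (28.6%) were lower and 2 (14.3%) higher, shares near those of all genes (22.5% and 19.3%). The difference between these families and the others was not tested. Kcnk9, an acid-sensitive leak channel gene, had the largest difference of all 126 genes. Its levels were 5.59, 4.78, 4.70, 4.56 and 5.08 in control, 4.82, 4.59, 4.53, 4.83 and 5.87 in treated, 10.51, 10.44 and 10.48 at E13.5, and 10.26, 10.05 and 10.35 at E14.5. The highest iPSC-derived array lay 4.18 below the lowest primary array, and the iPSC-derived means of 4.94 and 4.93 were near the lower quartile of all genes. The difference was -5.40 (SE 0.34, limma adjusted p = 1.81e-07) in control and -5.42 (1.89e-07) in treated cells. Without both arrays 5 it was -5.44 and -5.65. Kcnk10, a leak channel gene of the TREK family, fell by 2.01 on the log2 scale in control cells, and Kcnk3, another acid-sensitive leak gene, fell by 0.32. The Kcnk3 call was lost under some alternatives and was not made in treated cells (limma adjusted p = 0.0578). Kcnj3, a G-protein-gated rectifier gene, fell by 1.25, and Kcnj11, the pore of the ATP-sensitive channel, fell by 0.55. The other G-protein-gated genes under the rule, which left out Kcnj6, had small differences. Kcnj5 fell by 0.39 in control cells (limma adjusted p = 0.0222), and Kcnj9 differed by -0.34 (0.0606). In treated cells the calls were the other way round: Kcnj9 differed by -0.40 (0.0323) and Kcnj5 by -0.27 (0.0906).

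Only 4 channel genes were higher in control than in primary cells. Kcnj13, an inward rectifier of transporting epithelia, had levels of 9.03, 8.54, 7.0, 7.30 and 7.16 in control, 7.71, 7.52, 7.23, 7.46 and 7.87 in treated, 5.57, 6.25 and 4.73 at E13.5, and 5.99, 5.69 and 5.55 at E14.5. Every iPSC-derived array was above every primary array, and the difference was 2.18 (SE 0.46, limma adjusted p = 0.0025) in control and 1.93 (adjusted p = 0.00544) in treated cells. Kcnk5, a leak channel gene of kidney epithelium, had levels from 6.19 to 7.32 in control, from 5.71 to 7.51 in treated and from 4.61 to 5.32 in primary cells. It was higher by 1.71 (SE 0.45, limma adjusted p = 0.00857) in control and 1.60 (0.0125) in treated cells. Kcnk1, a weakly rectifying leak channel gene, was higher by 1.07 (0.0122) in control and 1.12 (0.00924) in treated cells. Kcnj16, a rectifier of glia and kidney, was higher by 1.07 (0.0337) and 0.99 (0.0482), with overlapping arrays.

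Some of these calls were lost when the primary group was reduced to 1 sample. With E13.5 as the only primary sample 2 genes were called higher in control and 2 in treated cells, and with E14.5 alone 2 and 0. The differences in control with either stage alone stayed at 2.07 to 2.29 for Kcnj13, 1.54 to 1.88 for Kcnk5, 0.90 to 1.24 for Kcnk1 and 0.90 to 1.25 for Kcnj16. The Kcnj16 call in control was also lost without control array 2, 3 or 4. Kcnj13 was the only one of the 4 called in control under each of 18 alternatives, and none of the 4 was called in all 18 in treated cells. Marker means of some other cell types also differed between iPSC-derived and primary cells. The mean of 7 epithelial markers was between 8.63 and 10.4 on control, between 8.27 and 10.5 on treated and between 5.78 and 6.03 on primary arrays, and the mean of 9 astrocyte and radial glia markers was between 9.12 and 9.79, 9.25 and 9.97, and 6.77 and 7.40. The astrocyte and radial glia list was mixed: in each comparison with primary cells 7 of 9 were higher, 1 was not called and 1 was lower. The lower one was Slc1a2, at -1.40 in control and -1.27 in treated cells. The mean of 9 fibroblast markers was at least 9.15 on each iPSC-derived array and at most 6.03 on each primary array. None of these markers was dim on every array, and their part in these differences was not tested.

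The other genes called lower in control cells had differences from -1.51 to -0.36. Among Kv pores these were Kcnc1 (-1.28) and Kcnc2 (-0.57), of the fast-spiking type, and the Shaker-type genes Kcna3 (-1.14), Kcna2 (-0.95) and Kcna6 (-0.61). Among auxiliary subunits they were the beta subunit genes Kcnab1 (-1.51) and Kcnab2 (-1.04) and the small subunit gene Kcne1 (-0.46). The EAG-related genes Kcnh2 (-1.25), Kcnh5 (-1.14) and Kcnh1 (-0.94) and the calcium- or sodium-activated channel genes Kcnmb2 (-1.24), Kcnt1 (-0.65), Kcnn1 (-0.45) and Kcnu1 (-0.36) were also lower, as was the K2P gene Kcnk16 (-0.45). The calls of Kcnc2, Kcne1, Kcnt1, Kcnn1, Kcnu1 and Kcnk16 were each lost under some of the 18 alternatives. Kcnc2 and Kcnk16 were not called in treated against primary cells (limma adjusted p = 0.0623 and 0.128). The 3 long non-coding RNAs differed by -1.18 (Kcnmb4os2), -0.53 (Kcnmb4os1) and -0.40 (Kcnd3os), in the direction of the genes they are named after, Kcnmb4 and Kcnd3. The calls of Kcnmb4os1 and Kcnd3os were also lost under some alternatives. The labels do not say whether strand was kept in labelling, on which the values of the 3 long non-coding RNAs depend.

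The remaining 55 channel genes were not called in control against primary, and 40 of them had a negative difference. Called or not, 107 of the 126 channel genes and 11699 of all 19938 genes had a negative difference. The 95% interval lay within 2-fold either way for 51.6% of the 126 and 66% of all genes. Neither share was counted over all uncalled genes, so the 40 are not read as a decrease. For 50 of the 55 the interval lay within 2-fold. The exceptions were Cacna1g, given above, and 4 genes with higher means in control cells: the sodium-activated channel gene Kcnt2 (0.81, interval 0.12 to 1.5), the K2P gene Kcnk6 (0.66), the inward rectifier gene Kcnj2 (0.61, -0.41 to 1.62) and the glial inward rectifier gene Kcnj10 (0.47, -0.36 to 1.31). Kcnt2 had levels of 5.24, 5.86, 5.31, 5.18 and 6.33 in control, 4.94, 5.66, 4.88, 4.86 and 5.55 in treated, 4.83, 4.79 and 5.15 at E13.5, and 4.61, 4.32 and 4.93 at E14.5. Its control arrays were all above the primary arrays and its treated arrays overlapped them, but neither comparison with primary cells passed the adjusted threshold (0.0582 and 0.322), nor did treated against control.

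Treatment with WNT1 and DKK3 was compared with control over the 10 iPSC-derived arrays. No channel gene was called higher (0% of all genes) or lower (0%) by limma at an adjusted p under 0.05. At an unadjusted p under 0.05 there were 300 of all genes and 3 channel genes. The 126 differences lay between -0.41 and 0.28 with a median of 0.02, the same as the median over all genes. The 95% interval stayed within 2-fold either way for 119 of the 126 genes (94.4%), and for 97.1% of all genes. The smallest p-values among genes with higher treated means belonged to the K2P gene Kcnk7 (0.22, interval 0.01 to 0.42), the A-type gene Kcnd1 (0.27, 0.01 to 0.53), the K2P gene Kcnk16 (0.21, 0.01 to 0.42) and the Kv gene Kcna5 (0.19, -0.03 to 0.40). Among those with lower treated means they belonged to Cacna2d4 (-0.18), the sodium-activated potassium channel gene Kcnt2 (-0.41), Hcn2 (-0.16) and Kcnu1 (-0.11). All 8 had an adjusted p of 1 (limma).

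The genes that separated iPSC-derived from primary cells gave wide intervals here where array 5 stood apart. Cacng3 had a treated minus control difference of 0.18 with a 95% interval from -1.25 to 1.61, and Cacna2d3 one of 0.07 from -1.02 to 1.15, so 2-fold changes in either direction were within the error. Kcnk9 differed by -0.01 (-0.60 to 0.58) and Kcnd3 by 0.07 (-0.61 to 0.75). Hcn4 and Kcnn2 had narrow intervals, 0.11 (-0.12 to 0.35) and -0.05 (-0.33 to 0.23). Without both arrays 5 the Cacng3 difference was -0.05 and again no gene was called.

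**Figure D3:**
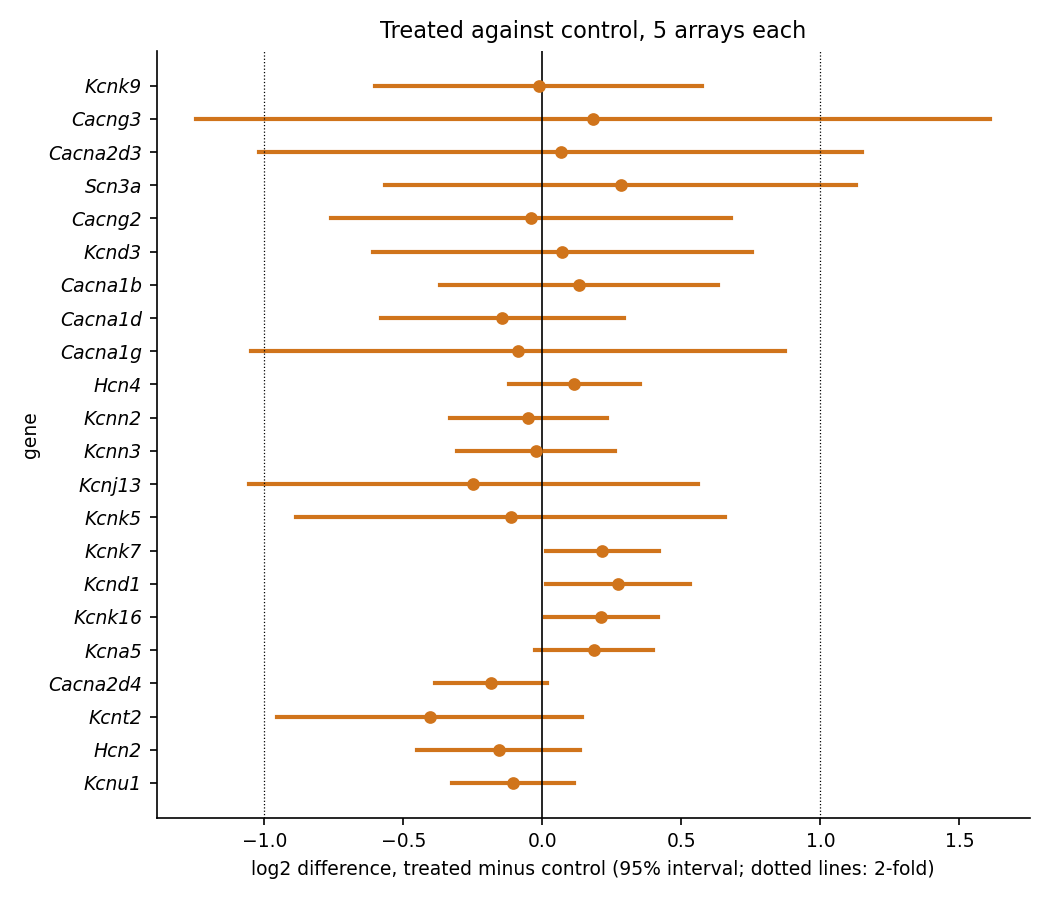
Log2 difference of treated minus control cells (x axis) for 22 channel genes (y axis), with the 95% interval of the limma fit over 5 and 5 arrays; dotted lines mark 2-fold. None passes the adjusted threshold, and the interval of Cacng3, from -1.25 to 1.61, is the widest shown.

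For several channel genes the arrays numbered 5 stood apart by more than any treatment difference. Both the treated and the control array 5 were the highest of their 5 arrays, and at least 1.5-fold above the mean of the other 4, for 12 of 126 channel genes (9.52%), where this held for 3.73% of all genes. They were Cacng3, Cacna2d3, Kcnip4, Scn3a, Cacna1g, Kcnd3, Cacna2d1, Cacng2, Cacna1e, Cacna1c, Cacna1h and Kcnrg. Both were the lowest, by as much, for 1 (Kcnk1), where this held for 4.32% of all genes. For Cacng3 array 5 lay 3.13 above the mean of the other 4 in treated and 1.96 in control cells. For Cacna2d3 the gaps were 2.36 and 1.55, for the KChIP gene Kcnip4 1.91 and 1.29, for Scn3a 1.85 and 1.12, and for Cacna1g 1.37 and 1.43. Kcnk1, high in iPSC-derived cells, had gaps of -0.73 and -0.72.

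Other genes that were low in iPSC-derived cells had smaller gaps in at least 1 group. Kcnk9 on arrays 5 was 5.87 in treated and 5.08 in control cells, against a lowest primary value of 10.05, and control array 1 (5.59) was above control array 5. Hcn4 had gaps of 0.31 and 0.23, and Kcnn2 of 0.55 and 0.21. The mean of 10 pan-neuronal markers was 7.92 on treated and 7.63 on control array 5, at most 6.26 and 6.38 on the other arrays of these groups, and at least 9.81 on the primary arrays. The epithelial mean was the lowest of each group on array 5 (8.27 and 8.63), as was that of 7 pluripotency markers (5.23 and 5.43, with the other arrays reaching 8.96 and 8.44). The mean of 10 muscle markers was the highest on array 5 (7.76 in treated and 6.82 in control, at most 6.68 and 6.64 on the others), as was that of 9 fibroblast markers (at most 9.58 and 9.81 on the others). The part of cell composition in the channel gene values of these arrays was not tested. Leaving out both arrays 5 gave 68 channel genes lower and 5 higher in control against primary (Kcnk6 added to the higher ones), and 68 and 4 in treated against primary.

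**Figure D4:**
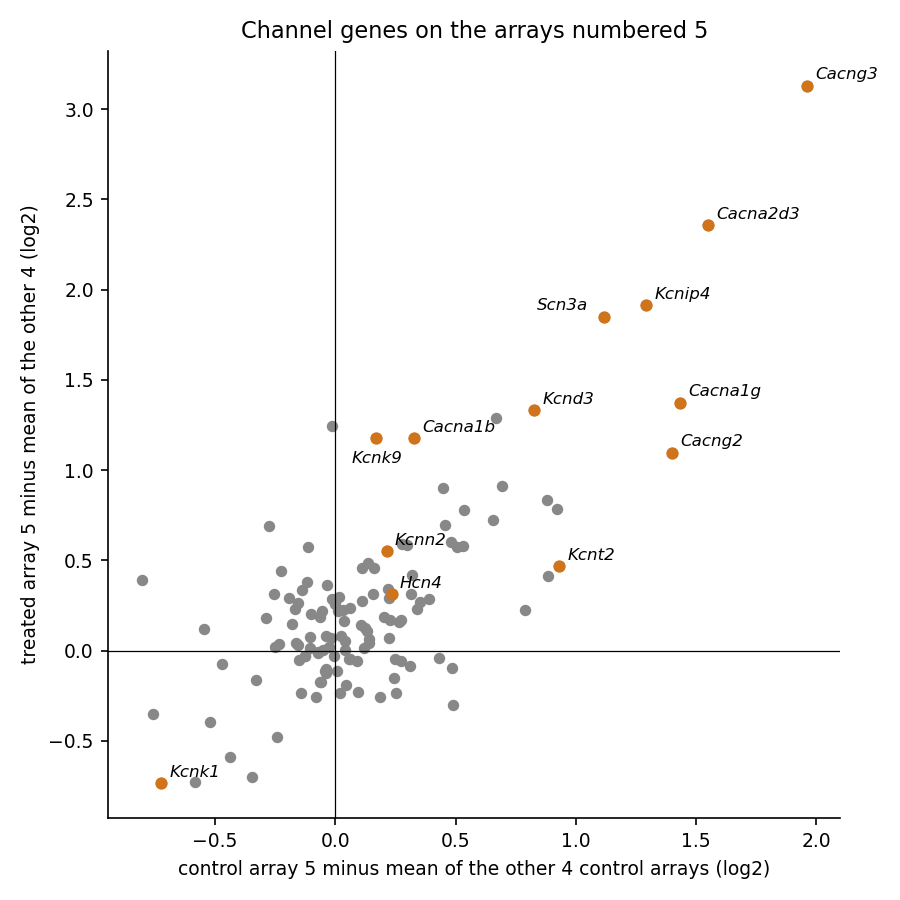
For each of the 126 channel genes, the log2 level on control array 5 minus the mean of the other 4 control arrays (x axis) and the same for treated cells (y axis); orange points are named. Cacng3 lies at 1.96 and 3.13 and Kcnk9 near 0.17 and 1.18, while Kcnk1 is below 0 on both axes.

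Between E13.5 and E14.5 no channel gene differed by 2-fold without overlap of the technical arrays, where 0.241% of all genes did. Each stage is 1 sample, so this comparison has no replicate check and no test. Differences lay between -0.64 (Kcna2) and 0.68 (Kcnip4) with a median of 0.02, and for 109 of 126 genes the arrays of the stages overlapped. The share of all genes with such overlap, at any size of difference, was not counted. The 109 are therefore not read as a result about channel genes. At 1.5-fold without overlap there were 2 channel genes, both higher at E14.5, where 1.6% of all genes differed either way. Kcnip4 had levels of 8.07, 8.20 and 7.75 at E13.5 and 8.49, 8.76 and 8.81 at E14.5. The delayed rectifier gene Kcnc2 had 4.51, 4.44 and 4.70, then 5.24, 5.09 and 5.25, which is near the lower quartile of all genes. Kcnk9 (10.47 and 10.22) and Cacng3 (8.22 and 8.66) had stage means that differed by less than 1.5-fold in opposite directions, each without overlap. Lack of overlap between technical arrays of 1 sample per stage does not establish a stage difference.

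**Figure D5:**
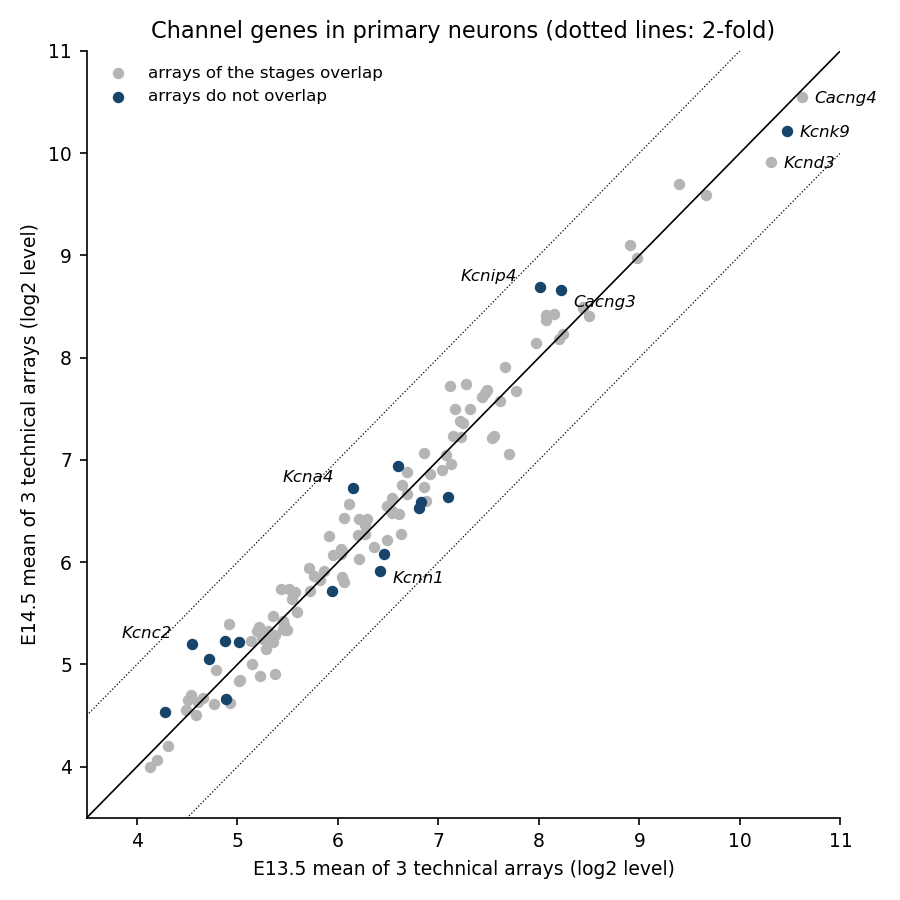
Mean log2 level of the 126 channel genes over 3 technical arrays at E13.5 (x axis) and at E14.5 (y axis). Dark points are the 17 genes whose technical arrays did not overlap, which does not establish a stage difference. The solid line is equality and dotted lines mark 2-fold. All points lie within the dotted lines, and Kcnip4 and Kcnc2 are farthest above the diagonal among the dark points.

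Genes of excitability outside the symbol rule were read from a list of 36, of which 34 were measured. In control against primary 18 were lower and 3 higher, and in treated against primary 17 were lower and 3 higher, beside the shares of all genes given above; none was called in treated against control. The largest decreases in control cells were in Fgf13, which binds sodium channel tails (fell by 3.52, SE 0.52, limma adjusted p = 0.000158), Dpp6, the partner of A-type channels (fell by 3.46, adjusted p = 1.25e-05), and the sodium channel beta subunit gene Scn3b (fell by 3.46, 0.000379). Nalcn, the sodium leak channel gene linked to pacemaking, fell by 1.16 (0.000336). Tpcn1, a pore of endosomes and lysosomes, was higher by 2.52 (1.47e-06), the proton channel gene Hvcn1 by 0.47 (0.0435) and the sperm channel gene Catsper2 by 0.41 (0.0313).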

How the data were processed

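Values were log2 levels of 35556 probe sets on 16 arrays, as deposited by the authors. The submitters' processing notes name RMA and Affymetrix Expression Console 1.2, with no roles attached. RMA makes levels relative between arrays. Per the labels' protocols, the Ovation PicoSL WTA System V2 amplified the RNA, which can add spread. Probe sets with 1 symbol in the platform's table (21789) were used, 1621 with several were left out, and symbols of 21698 were updated by Entrez ID with a RefSeq table of GRCm38.p6, giving 19938 genes.

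Differences were tested over all genes with limma 3.58.1 in R 4.3.3 (lmFit, eBayes, Benjamini-Hochberg, threshold 0.05), checked on simulated data. Treated against control used 10 arrays. Comparisons with primary cells used 12 samples in 3 groups, the primary group being the means of the E13.5 and of the E14.5 technical arrays. The channel genes, the marker and excitability lists, and the alternatives were chosen with earlier results of these data known. Named with values were Kcnk9, Cacng3, the 12 lowest and 10 highest called differences in control against primary, the 3 largest per role group, all sodium, calcium and HCN pore genes, known dopaminergic channel genes, and the 4 smallest p-values per direction for treatment. Genes of stage differences under 2-fold, those of arrays 5, Kcnk6 and Nalcn were named after their values were seen. Alternatives were a filter on dim genes, the mean of a gene's probe sets, median centring, trend and robust moderation, each replicate left out, both arrays 5 left out, a replicate block, only the 2 groups compared, and 1 primary stage. The number of arrays limits the precision.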

Additional observations from a re-analysis of the deposited data

Results flagged for a closer look

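For 66 named channel genes, each group of 5 iPSC-derived arrays (132 groups) was searched for an array far from the others, meaning that its gap to the next array exceeded 0.71 of the group's range. Chance alone marks about 1 group in 20. The search marked 16 groups, and in 14 of them the array that stood apart was array 5, as the highest. The groups share the same arrays, so they are not independent, and the search was not run over all genes. By the other measure used above, both arrays 5 were highest for 9.52% of channel genes and 3.73% of all genes. They were lowest for 0.794% and 4.32%. How often this search would mark array 5 over all genes is not known.

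On treated array 5 these were Cacna1a at 7.03 (next array 6.51), Cacna1b at 6.58 (5.52), Cacna1c at 6.97 (6.24), Cacna1e at 6.63 (5.81), Cacna2d3 at 7.18 (5.05), Cacng3 at 7.68 (4.83), Kcnip4 at 7.34 (5.64), Kcnk9 at 5.87 (4.83), Kcnn2 at 5.41 (4.93) and Scn3a at 6.23 (4.62). On control array 5 they were Cacna1e at 6.42 (5.80), Cacna2d3 at 6.47 (5.11), Cacna2d4 at 5.57 (5.33) and Kcnk16 at 5.18 (4.95). The other two were control array 2 as the lowest, for Kcnk7 at 5.10 (next array 5.33) and Scn9a at 4.72 (5.01).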

How the results depend on the processing

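Over 18 alternatives, 54 to 95 channel genes were called lower in control than in primary cells and 56 to 93 in treated cells, with 51 and 52 of the 67 called in every alternative; leaving out 1 replicate gave 63 to 72 and 63 to 68. Genes called higher fell to 2 with E13.5 as the only primary sample in both comparisons, and to 2 (control) and 0 (treated) with E14.5 alone, where the primary group is 1 sample; leaving out 1 replicate gave 3 to 5 and 3 to 4. Centring on array medians gave the most lower calls. For E14.5 against E13.5, the 1.5-fold threshold gave 2 higher genes. Treated against control gave 0 calls in all 16 alternatives. With the replicate number as a block (replicate block) 0 channel genes were higher and 0 lower, and over all genes 1 was higher. At an unadjusted p under 0.05 (limma) the block gave 834 of all genes, against 300 without it. The treatment intervals given above are from the fit without the block and include any spread shared by equal numbers. Same-numbered treated and control arrays deviated together with correlations of 0.05, 0.52, 0.43, 0.72 and 0.80 for numbers 1 to 5. Only treated arrays 2, 4 and 5 correlated best with their own number, so the numbers do not establish pairs. No named gene reversed its direction where it was called. Single calls that were lost in control include Kcnj16 (7 of 18 alternatives), Cacna1c (5), Cacna1d (2), Kcnj11 (2), Cacng3 (1), Kcnk5 (1) and Kcnk1 (1). In treated cells they include Kcnj16 (10 of 18), Kcnj11 (10), Kcnj9 (4), Cacna1c (2), Cacna1d (2), Kcnk5 (2), Cacng3 (1), Kcnk1 (1) and Kcnj13 (1).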
